A study of Rattus norvegicus with 372 samples.

Results

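Hepatocytes of male Wistar rats in collagen sandwich culture were exposed for 24 h to 60 µM simvastatin, the higher of its 2 concentrations, and are described here against vehicle wells that held the same medium with 0.5% DMSO. These are the 12 of 372 samples whose label gives the chemical simvastatin and the dose 60 µM. Of them, 6 were read by the whole-transcriptome (WT) assay and 6 by the surrogate (ST) assay, in both cases 3 wells from each of 2 batches. A batch is one isolation of hepatocytes from a different rat, with its own culture, libraries and sequencing, so there were 2 biological replicates, and the 3 wells within a batch were technical replicates on one plate. In a difference between batches, the rat, the libraries and the sequencing cannot be told apart. The reference was the 9 vehicle wells of each assay, 3 in batch 1 and 6 in batch 2. Simvastatin and vehicle wells shared a medium with insulin, dexamethasone and EGF. The study covered 14 chemicals at 2 concentrations each. With 2 rats, p-values measure mainly the spread between wells. TempO-Seq hybridizes pairs of detector oligos to RNA in cell lysate and counts ligated pairs, and its values per unit of depth (CPM, scaled counts) have no length scaling, so levels are compared within a gene only.

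Simvastatin is a lactone prodrug whose open acid inhibits the mevalonate pathway, which turns acetyl-CoA into sterols and isoprenoids. Low sterol in the endoplasmic reticulum releases the transcription factor SREBP2, which raises the genes of cholesterol synthesis and uptake, while oxysterols made from cholesterol activate LXR, which raises genes of sterol efflux. The same pathway supplies the isoprenoid tails that anchor small GTPases such as RhoA to membranes, and RhoA activity keeps the actin cytoskeleton assembled and the SRF and YAP transcription programmes on. In hepatocytes, the receptors PXR, CAR and PPAR alpha control the cytochrome P450 (CYP) families 3A, 2B and 4A.

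Promoters of cholesterol genes are shown because the members rose together and because NF-Y, which binds CCAAT boxes, is a known partner of SREBP2. They are the 250 bases before the annotated start, from RefSeq on GRCr8 and written on the strand of the gene, for the 5 members with the largest log2 fold changes that had an entry. Capitals mark CCAAT or its reverse complement. The stretches were Idi1 at chr17:66547525-66547774 on the minus strand, Acat2 at chr1:50100590-50100839 on the plus strand, Mvd at chr19:67414975-67415224 on the minus strand, Hmgcs1 at chr2:53382054-53382303 on the plus strand and Msmo1 at chr16:29746863-29747112 on the plus strand.
Idi1: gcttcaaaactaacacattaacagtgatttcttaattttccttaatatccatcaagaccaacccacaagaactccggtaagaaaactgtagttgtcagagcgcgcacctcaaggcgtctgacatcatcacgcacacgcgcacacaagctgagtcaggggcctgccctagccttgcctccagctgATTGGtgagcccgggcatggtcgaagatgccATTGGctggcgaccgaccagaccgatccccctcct
Acat2: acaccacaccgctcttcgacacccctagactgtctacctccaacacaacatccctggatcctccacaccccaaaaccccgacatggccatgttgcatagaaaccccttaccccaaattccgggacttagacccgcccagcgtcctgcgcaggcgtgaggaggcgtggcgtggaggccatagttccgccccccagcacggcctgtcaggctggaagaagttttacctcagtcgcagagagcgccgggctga
Mvd: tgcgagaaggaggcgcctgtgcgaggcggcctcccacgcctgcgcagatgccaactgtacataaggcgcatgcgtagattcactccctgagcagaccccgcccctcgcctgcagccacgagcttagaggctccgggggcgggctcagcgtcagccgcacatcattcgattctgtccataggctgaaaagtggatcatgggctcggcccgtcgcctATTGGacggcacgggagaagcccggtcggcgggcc
Hmgcs1: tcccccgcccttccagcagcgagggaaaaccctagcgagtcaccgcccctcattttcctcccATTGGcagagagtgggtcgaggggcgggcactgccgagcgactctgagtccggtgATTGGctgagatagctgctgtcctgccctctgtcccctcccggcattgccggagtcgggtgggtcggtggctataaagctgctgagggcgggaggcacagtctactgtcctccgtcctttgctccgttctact
Msmo1: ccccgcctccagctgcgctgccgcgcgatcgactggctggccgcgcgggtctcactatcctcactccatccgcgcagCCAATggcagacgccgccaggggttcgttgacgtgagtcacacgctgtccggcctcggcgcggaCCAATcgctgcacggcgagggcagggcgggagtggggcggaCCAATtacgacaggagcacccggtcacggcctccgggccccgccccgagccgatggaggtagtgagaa
Of the 18 listed cholesterol synthesis genes, 15 had an entry, and 12 of these 15 held CCAAT on either strand, against 34% of all 33469 promoters of the table over the same 250 bases. The same search found CCAAT in 4 of 5 SREBP2 targets outside synthesis, 12 of 21 CAR and PXR targets and 9 of 23 PPAR alpha targets. Idi1 had 2 matches, Hmgcs1 2, Msmo1 3 and Mvd 1, and Acat2 had none. The sterol regulatory element form TCACNCCAC, also searched on both strands, was found in none of the 15, and 0.974% of all promoters held it. A match is a description of the letters in this window.

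In the WT assay, 2436 of 10191 genes tested (23.9%) differed between simvastatin 60 µM and vehicle at an adjusted p under 0.05 (edgeR, quasi-likelihood F test, batch in the model), 1161 higher (11.4%) and 1275 lower (12.5%). Of these, 462 differed at least 2-fold, 276 of them lower, and the median log2 fold change of all genes tested was -0.0032. The 15 WT wells held 5492941 to 8264980 reads each and the ST wells 984283 to 1643796. In the ST assay, the share of probes at 0 was 19.0% to 21.7% with simvastatin and 16.2% to 17.3% with vehicle in batch 1. In batch 2 this share was 18.1% to 19.0% against 15.0% to 18.0%, so the groups did not overlap in either batch. The WT shares overlapped, and the cause was not tested. Pairs of wells of one group and batch had log2 CPM correlations of 0.982 to 0.992, against 0.961 to 0.976 between simvastatin and vehicle wells of one batch, and no well stood apart. The summed level of the 14 measured genes of hepatocyte identity, albumin among them, was 40417 to 46499 CPM with simvastatin and 35664 to 40395 CPM with vehicle in batch 1, and 37000.1 to 44769 against 37638 to 43033 CPM in batch 2.

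Every tested gene of cholesterol synthesis was higher with simvastatin. All 14 tested members of the list rose, with log2 fold changes from 0.71 (Nsdhl) to 2.84 (Idi1) and a median of 2.29, beside a median near 0 and 11.4% higher over all genes tested. In all 14, the lowest simvastatin well lay above the highest vehicle well in both batches, which held for 6.93% of all genes tested. Of the other listed members, Pmvk, Ebp and Sc5d had no matched symbol in the WT table and Tm7sf2 was below the count minimum.

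Hmgcs1 encodes the synthase that makes HMG-CoA early in the pathway. In batch 1, Hmgcs1 read 23.4, 19.2 and 21.6 CPM with simvastatin and 5.17, 4.46 and 8.19 CPM in vehicle wells. In batch 2, Hmgcs1 read 21.0, 19.5 and 27.1 CPM with simvastatin against 2.15 to 4.20 CPM (median 3.13) in the 6 vehicle wells. The wells of each batch did not overlap, and the rise was 5.41-fold, a log2 fold change of 2.44 ± 0.20 (SE, adjusted p = 1.3e-21). Upstream of it, Acat2, which joins acetyl-CoA units, rose 6.99-fold (log2 2.81 ± 0.17 SE, adjusted p = 1.6e-33). Downstream, the kinase Mvk rose by 1.29 ± 0.095 (SE, adjusted p = 5.6e-26) on the log2 scale, and Mvd, which makes isopentenyl diphosphate, by 2.63 ± 0.17 (SE, adjusted p = 6.2e-30).

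Idi1, the isomerase between the interconvertible activated isoprenoid units, had the largest log2 fold change of the list. In batch 1, Idi1 read 134, 105 and 110.2 CPM with simvastatin and 17.9, 23.4 and 17.9 CPM in vehicle wells. In batch 2, Idi1 read 61.1, 45.6 and 55.7 CPM with simvastatin against 5.23 to 9.55 CPM (median 6.81) in the 6 vehicle wells. The vehicle wells of batch 1 were higher than those of batch 2, and in each batch the simvastatin wells were well above them. Its log2 fold change was 2.84 ± 0.19 (SE, adjusted p = 1.3e-28). Fdps, which makes farnesyl diphosphate at the branch to prenylation, rose by 2.39 ± 0.18 (SE, adjusted p = 9.4e-25), and Fdft1, squalene synthase and the first committed step to sterols, by 2.03 ± 0.15 (SE, adjusted p = 1.0e-25).

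The sterol-forming steps rose by amounts that differed between enzymes. Squalene epoxidase Sqle rose by 1.59 ± 0.17 (SE, adjusted p = 3.6e-15), lanosterol synthase Lss by 2.18 ± 0.15 (SE, adjusted p = 4.9e-28) and the lanosterol demethylase Cyp51 by 2.35 ± 0.21 (SE, adjusted p = 1.2e-19). The C4 demethylation enzymes Msmo1 and Hsd17b7 had log2 fold changes of 2.42 and 2.22, while Nsdhl, which acts between them, had 0.71 ± 0.068 (SE, adjusted p = 6.3e-18). Dhcr7, a reductase late in the pathway, rose by 1.49 ± 0.14 (SE, adjusted p = 7.6e-19). Tm7sf2, a sterol reductase with 140 reads over the 6 simvastatin wells and 27 over the 9 vehicle wells, had a log2 fold change of 2.82 in the fit without a count minimum (adjusted p = 2.5e-09).

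**Figure D1:**
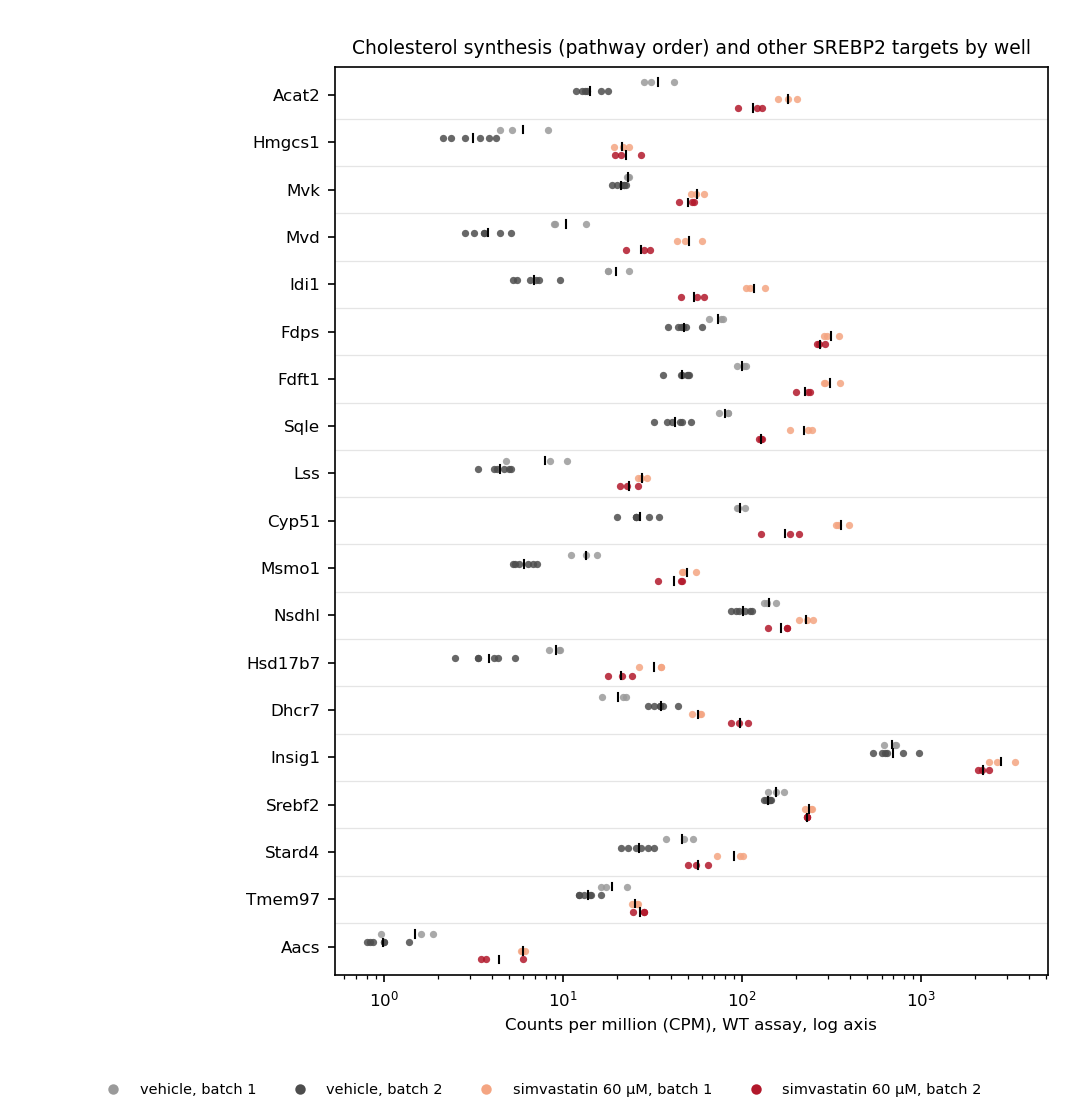
CPM (log axis) of 19 genes of cholesterol synthesis and other SREBP2 targets in each WT well. Points are wells, coloured by group and batch, and short vertical lines are group means. In both batches the simvastatin points lie to the right of the vehicle points of the same batch for each gene.

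SREBP2 targets outside synthesis moved the same way. All 5 tested members rose, against 11.4% of all genes tested, with a median log2 fold change of 1.10. In all 5 the simvastatin wells lay above the vehicle wells without overlap in either batch, which held for 6.93% of all genes tested. Insig1 encodes the protein that retains the SREBP escort SCAP in the endoplasmic reticulum. In batch 1, Insig1 read 3349, 2402 and 2651 CPM with simvastatin and 623, 713 and 722 CPM in vehicle wells. In batch 2, Insig1 read 2066, 2382 and 2179.5 CPM with simvastatin against 540.0 to 966 CPM (median 637) in the 6 vehicle wells. It rose 3.73-fold (log2 1.90 ± 0.14 SE, adjusted p = 3.2e-26). Srebf2, the gene of SREBP2 itself, rose by 0.69 ± 0.057 (SE, adjusted p = 3.4e-22).

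Stard4, a carrier that moves sterol between membranes, rose by 1.10 ± 0.13 (SE, adjusted p = 2.1e-12), and Aacs, an acetoacetate-activating ligase, by 2.17 ± 0.26 (SE, adjusted p = 9.6e-13). Tmem97 encodes a sterol-responsive membrane protein. In batch 1, Tmem97 read 24.1, 26.1 and 25.8 CPM with simvastatin and 16.2, 22.7 and 17.4 CPM in vehicle wells. In batch 2, Tmem97 read 28.2, 24.5 and 28.1 CPM with simvastatin against 12.2 to 16.2 CPM (median 13.6) in the 6 vehicle wells. The simvastatin wells of both batches were alike and lay above the vehicle wells, with a log2 fold change of 0.75 ± 0.17 (SE, adjusted p = 0.00021). Tmem97 did not pass in batch 1 alone (0.47, adjusted p = 0.14). Npc1l1, a sterol uptake transporter, had 1 read over the 6 simvastatin wells and 1 over the 9 vehicle wells, so a difference was not detectable at this depth.

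The next list held genes of sterol sensing, esterification and efflux, some of them LXR targets. Of its 9 tested genes, 5 fell, against 12.5% of all genes tested, 2 rose, against 11.4%, and 2 did not pass. The median log2 fold change was -0.56. Within batches, 3 fell in batch 1 and 1 in batch 2, beside 6.49% and 7.72% of all genes tested. Abcg1, a cholesterol exporter, fell most. In batch 1, Abcg1 read 2.46, 2.11 and 1.78 CPM with simvastatin and 11.3, 13.8 and 8.53 CPM in vehicle wells. In batch 2, Abcg1 read 0.682, 1.09 and 1.60 CPM with simvastatin against 5.35 to 8.27 CPM (median 7.54) in the 6 vehicle wells. No simvastatin well reached a vehicle well of its batch, and the log2 fold change was -2.50 ± 0.27 (SE, adjusted p = 3.6e-15). Abca1, the exporter that loads apolipoprotein A-I, had -0.96 ± 0.19 (SE, adjusted p = 2.5e-05), with a fall in batch 1 (-1.33, adjusted p = 3.1e-05) and -0.61 in batch 2, which did not pass on its own (adjusted p = 0.090). Soat1, which esterifies cholesterol, had a log2 fold change of -1.95 ± 0.60 (SE, adjusted p = 0.0086) at under 3 CPM in every well and passed in neither batch alone.

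Insig2, the paralog of Insig1 that SREBP2 does not control, rose, as did Soat2 (0.54, adjusted p = 0.0082), which esterifies cholesterol in hepatocytes. In batch 1, Insig2 read 83.0, 72.6 and 66.7 CPM with simvastatin and 24.3, 25.0 and 23.7 CPM in vehicle wells. In batch 2, Insig2 read 66.0, 66.1 and 65.0 CPM with simvastatin against 23.3 to 34.7 CPM (median 27.2) in the 6 vehicle wells. The log2 fold change was 1.39 ± 0.13 (SE, adjusted p = 9.3e-18). Mylip, a ubiquitin ligase, and Srebf1, the gene of SREBP1, were the other LXR targets that fell, at -0.82 (adjusted p = 0.029) and -0.56 (adjusted p = 0.0010). Srebf1 passed in batch 1 (-0.97, adjusted p = 4.8e-06) and had -0.22 in batch 2 (adjusted p = 0.27, of the difference 0.049). Nr1h3, the gene of LXR alpha, had 0.14 (adjusted p = 0.54). Abcg5, a sterol exporter below the count minimum, had 46 reads over the simvastatin wells and 3 over the vehicle wells. In the edgeR fit without a count minimum its log2 fold change was 3.83 (adjusted p = 2.0e-06).

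Beyond the sterol branch, 1 of 15 tested genes of prenylation, dolichol, ubiquinone and related steps rose and 14 did not pass, beside 23.9% of all genes tested that did, with a median log2 fold change of 0.053. The one was Nus1, a dolichol-synthesis subunit, at 0.30 ± 0.11 (SE, adjusted p = 0.045), and its call was lost on leaving out any one of 9 of the 15 wells (adjusted p up to 0.094). Ggps1, which makes the geranylgeranyl donor, had -0.023 (adjusted p = 0.92), and the shared farnesyl and geranylgeranyl transferase subunit Fnta had -0.025 (adjusted p = 0.88).

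Among small GTPases and their regulators, 2 of 15 tested genes rose and 3 fell, shares near the 11.4% higher and 12.5% lower of all genes tested, and 10 did not pass. In batch 1, Rhoa read 1876, 1941 and 1994 CPM with simvastatin and 1328, 1329 and 1384 CPM in vehicle wells. In batch 2, Rhoa read 1728, 1762 and 1651 CPM with simvastatin against 1253 to 1529 CPM (median 1431) in the 6 vehicle wells. The gene of RhoA, which drives actin contraction, was higher in all 6 simvastatin wells, with a 1.31-fold change (log2 0.39 ± 0.08 SE, adjusted p = 4.8e-05). Rnd3, an atypical GTPase that opposes RhoA, fell by 0.48 on the log2 scale (SE 0.13, adjusted p = 0.0024), and Rnd1 had -0.28 (adjusted p = 0.037). Rhoc had -0.55 ± 0.21 (SE, adjusted p = 0.04998) and Rheb 0.29 ± 0.11 (SE, adjusted p = 0.045), and these calls were lost on leaving out any one of 12 and 9 of the 15 wells, with adjusted p up to 0.090 and 0.12. In the ST assay Rhoa had 0.26 and did not pass (adjusted p = 0.075), and Rheb had the opposite sign (-0.33, adjusted p = 0.033). Rheb did not pass against vehicle wells of the same plate (0.30, adjusted p = 0.067). Rac1 and Cdc42 had 0.13 and -0.025 and did not pass. Rhob had no matched symbol.

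Genes of the actin cytoskeleton and targets of SRF and YAP were lower with simvastatin. Of 18 tested members, 13 fell and none of the 18 rose, against 12.5% lower over all genes tested, and the median log2 fold change was -0.54. In 14 members all simvastatin wells lay below all vehicle wells of both batches, which held for 6.75% of all genes tested.

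Tagln, transgelin, an actin-binding protein and SRF target, had the largest fall of the list. In batch 1, Tagln read 12.0, 6.17 and 8.07 CPM with simvastatin and 98.6, 112 and 101 CPM in vehicle wells. In batch 2, Tagln read 2.45, 2.05 and 3.79 CPM with simvastatin against 52.7 to 117 CPM (median 84.0) in the 6 vehicle wells. The highest simvastatin well was several times below the lowest vehicle well, and the log2 fold change was -4.32 ± 0.32 (SE, adjusted p = 1.7e-25). Acta1, skeletal alpha-actin, another SRF target, belonged to no list and was named as one of the 10 largest falls that passed in both batches. In batch 1, Acta1 read 16.8, 13.8 and 14.4 CPM with simvastatin and 168, 159 and 151 CPM in vehicle wells. In batch 2, Acta1 read 15.3, 17.1 and 13.6 CPM with simvastatin against 204 to 277 CPM (median 243) in the 6 vehicle wells. Its log2 fold change was -3.85 ± 0.26 (SE, adjusted p = 2.9e-29), with no overlap of wells.

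Tpm1, a tropomyosin that stabilizes actin filaments, was measured at higher counts. In batch 1, Tpm1 read 123, 134 and 124 CPM with simvastatin and 717, 697 and 687 CPM in vehicle wells. In batch 2, Tpm1 read 155, 150.1 and 132 CPM with simvastatin against 516 to 675 CPM (median 643) in the 6 vehicle wells. The log2 fold change was -2.28 ± 0.17 (SE, adjusted p = 2.0e-26), and the wells of the 2 groups were far apart in both batches. Ankrd1, a YAP target, had -2.50 ± 0.24 (SE, adjusted p = 9.3e-18), the crosslinker Actn1 -1.21 ± 0.13 (SE, adjusted p = 4.1e-15), and the YAP target Cyr61 -1.14 (adjusted p = 3.9e-10). Actg1, cytoplasmic gamma-actin, had -0.30 and did not pass (adjusted p = 0.082), nor did Srf itself (-0.20, adjusted p = 0.47). Vil1, villin, which bundles actin in the bile canaliculus, had a log2 fold change of -2.93 ± 0.18 (SE, adjusted p = 2.8e-32).

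Transgelin and alpha-actins also mark stellate cells and smooth muscle. Of 9 stellate cell and fibroblast markers in the WT table, 3 were tested. Col3a1 rose (0.56, adjusted p = 0.0055), and Col1a2 and Rgs5 did not pass. Acta2 had 0 reads over the 6 simvastatin wells and 36 over the 9 vehicle wells, Pdgfrb 5 and 32, Dcn 159 and 39, Lum 17 and 13, Des 1 and 4, and Col1a1 2 and 2. In the fit without a count minimum Dcn was higher with simvastatin (2.38, adjusted p = 1.8e-08), and Pdgfrb was lower (-2.07, adjusted p = 0.042), as was Acta2 (adjusted p = 2.9e-05). Most reads of the 9 markers were of 2 collagen genes, Col3a1 (6232 over the 15 wells) and Col1a2 (2433), with Dcn next (198). The summed level of the 9 markers, which thus mainly follows these collagens, was 167 to 185 CPM with simvastatin and 109 to 169 CPM with vehicle in batch 1. In batch 2 the sum of the 9 markers was 54.1 to 58.1 against 35.6 to 51.0 CPM. Their part in the fall of actin genes was not tested, and in bulk lysates fewer cells of a type and less RNA per cell cannot be told apart.

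Fatty acid synthesis genes, several of which share sterol-responsive control, rose in part: 6 of 12 tested members rose, against 11.4% of all genes tested, and 6 did not pass, with a median of 0.52. Scd, the delta-9 desaturase, was among the largest. In batch 1, Scd read 104, 68.8 and 70.5 CPM with simvastatin and 18.9, 21.4 and 10.9 CPM in vehicle wells. In batch 2, Scd read 67.3, 64.8 and 47.2 CPM with simvastatin against 9.13 to 20.4 CPM (median 13.0) in the 6 vehicle wells. All simvastatin wells were above the vehicle wells, with a log2 fold change of 2.22 ± 0.18 (SE, adjusted p = 4.9e-23). The elongase Elovl6 rose by 2.43 ± 0.33 (SE, adjusted p = 2.2e-10), the desaturase Fads1 by 1.29 ± 0.15 (SE, adjusted p = 1.5e-12) and fatty acid synthase Fasn by 1.26 ± 0.16 (SE, adjusted p = 2.1e-11). Fasn differed between batches (0.84 in batch 1 and 1.59 in batch 2, adjusted p of the difference 0.017). Acaca had 0.15, Me1 0.078 and Elovl5 0.18, and none of the 3 passed.

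PPAR alpha targets, the genes of fatty acid oxidation and omega hydroxylation, were all higher with simvastatin. All 22 tested members rose, against 11.4% of all genes tested. Their log2 fold changes ran from 0.39 (Acadl) to 5.30 (Cyp4a2), with a median of 1.56. For 21 the simvastatin wells lay above the vehicle wells without overlap in either batch, which held for 6.93% of all genes tested. The exception was Acot1, with at most 0.685 CPM in any simvastatin well and an adjusted p of 0.043, which met the count minimum over all wells of the assay and not over these 15. In batch 1, Cyp4a2 read 645, 391 and 458 CPM with simvastatin and 9.97, 10.5 and 12.3 CPM in vehicle wells. In batch 2, Cyp4a2 read 435, 324 and 403 CPM with simvastatin against 7.96 to 13.2 CPM (median 9.91) in the 6 vehicle wells. This fatty acid omega hydroxylase thus rose 39.3-fold (log2 5.30 ± 0.31 SE, adjusted p = 8.0e-35). Cyp4a1 rose by 4.52 ± 0.38 (SE, adjusted p = 2.7e-21). Reads of near-identical paralogs, such as Cyp4a2 and Cyp4a3 or Acot1 and Acot2, may be shared between them.

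Enzymes of mitochondrial and peroxisomal oxidation rose less than the Cyp4a genes. Cpt1b and Cpt1a, which pass acyl groups to carnitine, had log2 fold changes of 2.13 and 1.66, and Cpt2 1.58. The peroxisomal enzyme Ehhadh had 2.43. The lipid droplet protein Plin2 had 1.59 and the fatty acid binding protein Fabp1 1.98. Pdk4, the kinase that inhibits pyruvate dehydrogenase, had 3.11 ± 0.55 (SE, adjusted p = 1.4e-06) at under 2 CPM in each well. The probe row named RGD1565355, which shares its probe number with Cd36 of the ST assay, a fatty acid transporter, rose by 2.47 ± 0.28 (SE, adjusted p = 2.1e-13). It rose more in batch 2 than in batch 1 (3.21 against 1.36, adjusted p of the difference 0.0099).

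The largest rises of all were in the CYP3A family, the classical targets of PXR. Of 14 tested members of the CAR and PXR list, 10 rose, against 11.4% of all genes tested, and 4 did not pass, with a median log2 fold change of 1.46. Clone or locus names stand on 3 rows of the WT data, and the ST assay gives their probe numbers to CYP3A genes: AABR07035343.1 to CYP3A23/3A1, LOC100910877 to CYP3A1 and AABR07035374.1 to CYP3A2. The first and the last are members of the list, and LOC100910877 is not counted in it and was named as one of the 10 largest rises. In batch 1, LOC100910877 read 892, 881 and 827 CPM with simvastatin and 9.01, 6.61 and 5.12 CPM in vehicle wells. In batch 2, LOC100910877 read 670.1, 571 and 670.4 CPM with simvastatin against 3.22 to 4.40 CPM (median 3.66) in the 6 vehicle wells. The lowest simvastatin well was far above the highest vehicle well, and the log2 fold change was 7.19 ± 0.23 (SE, adjusted p = 1.8e-66).

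AABR07035374.1 showed the same separation. In batch 1, AABR07035374.1 read 1055, 1193 and 898 CPM with simvastatin and 13.0, 11.6 and 12.3 CPM in vehicle wells. In batch 2, AABR07035374.1 read 948, 1028 and 993 CPM with simvastatin against 6.95 to 9.01 CPM (median 8.61) in the 6 vehicle wells. Its log2 fold change was 6.66 ± 0.22 (SE, adjusted p = 3.9e-64), and AABR07035343.1, under 2 CPM in each vehicle well, had 7.82 ± 0.30 (SE, adjusted p = 1.9e-56). CYP3A paralogs are near identical, so reads may be shared among the 3 rows. Cyp3a9, another CYP3A member, had 0.084 and did not pass (adjusted p = 0.75).

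Cyp2b2, the classical phenobarbital-inducible gene and CAR target, also rose. In batch 1, Cyp2b2 read 62.2, 37.2 and 51.3 CPM with simvastatin and 3.60, 5.71 and 2.05 CPM in vehicle wells. In batch 2, Cyp2b2 read 99.1, 56.1 and 95.6 CPM with simvastatin against 0.825 to 3.33 CPM (median 1.95) in the 6 vehicle wells. No wells overlapped, and the log2 fold change was 4.75 ± 0.29 (SE, adjusted p = 1.6e-33), with the near-identical Cyp2b1 at 2.45 (adjusted p = 1.7e-05). Among partners of the P450 enzymes, Por, their electron donor, rose by 1.65 ± 0.11 (SE, adjusted p = 2.4e-28) and Alas1, the first step of heme synthesis, by 1.26 ± 0.13 (SE, adjusted p = 9.8e-16). Of conjugating enzymes on the list, the glutathione transferase Gsta2 rose by 3.02 (adjusted p = 9.1e-23, with 3.60 in batch 1 and 2.43 in batch 2, adjusted p of the difference 0.043) and Ugt2b17, whose probe numbers the ST assay gives to Ugt2b1 and Ugt2b10, by 3.32 ± 0.24 (SE, adjusted p = 2.1e-27). Aldh1a1, Cyp2b3 and Cyp2c7 had 0.18, 0.032 and -0.0059 and did not pass.

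P450 enzymes expressed constitutively in liver were mixed. Of 12 tested, 8 rose, 1 fell and 3 did not pass, beside 11.4% higher and 12.5% lower over all genes tested, with a median of 0.51. Within batches, 5 rose and 2 fell in batch 1, beside 7.59% and 6.49% of all genes tested, and 8 rose in batch 2, beside 8.84%. Cyp2c22, a retinoic acid hydroxylase, rose most. In batch 1, Cyp2c22 read 5241, 4514 and 4339 CPM with simvastatin and 317, 441 and 518 CPM in vehicle wells. In batch 2, Cyp2c22 read 2272, 1980.1 and 2281 CPM with simvastatin against 112 to 149 CPM (median 136) in the 6 vehicle wells. Batch 1 was higher than batch 2 in both groups, and the fold change was 14.0 (log2 3.81 ± 0.22 SE, adjusted p = 8.5e-35). Cyp2c6v1 rose by 2.15 ± 0.25 (SE, adjusted p = 9.2e-13) and Cyp2j4 by 1.67 ± 0.16 (SE, adjusted p = 6.7e-18). Cyp4f4 fell (-0.71, adjusted p = 0.00031), and Cyp1a2 and Cyp2e1 had -0.075 and 0.27 and did not pass.

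Cyp2c11, the male-specific P450 of rat liver, had the smallest adjusted p for a difference between batches among the named genes. In batch 1, Cyp2c11 read 153, 215 and 174 CPM with simvastatin and 161, 169 and 138 CPM in vehicle wells. In batch 2, Cyp2c11 read 279, 199 and 233 CPM with simvastatin against 36.2 to 53.9 CPM (median 45.1) in the 6 vehicle wells. In batch 1 the 2 groups overlapped and in batch 2 they did not. The log2 fold change was 0.24 in batch 1 (adjusted p = 0.42) and 2.41 in batch 2 (adjusted p = 2.3e-16), and the difference had an adjusted p of 3.2e-08.

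**Figure D2:**
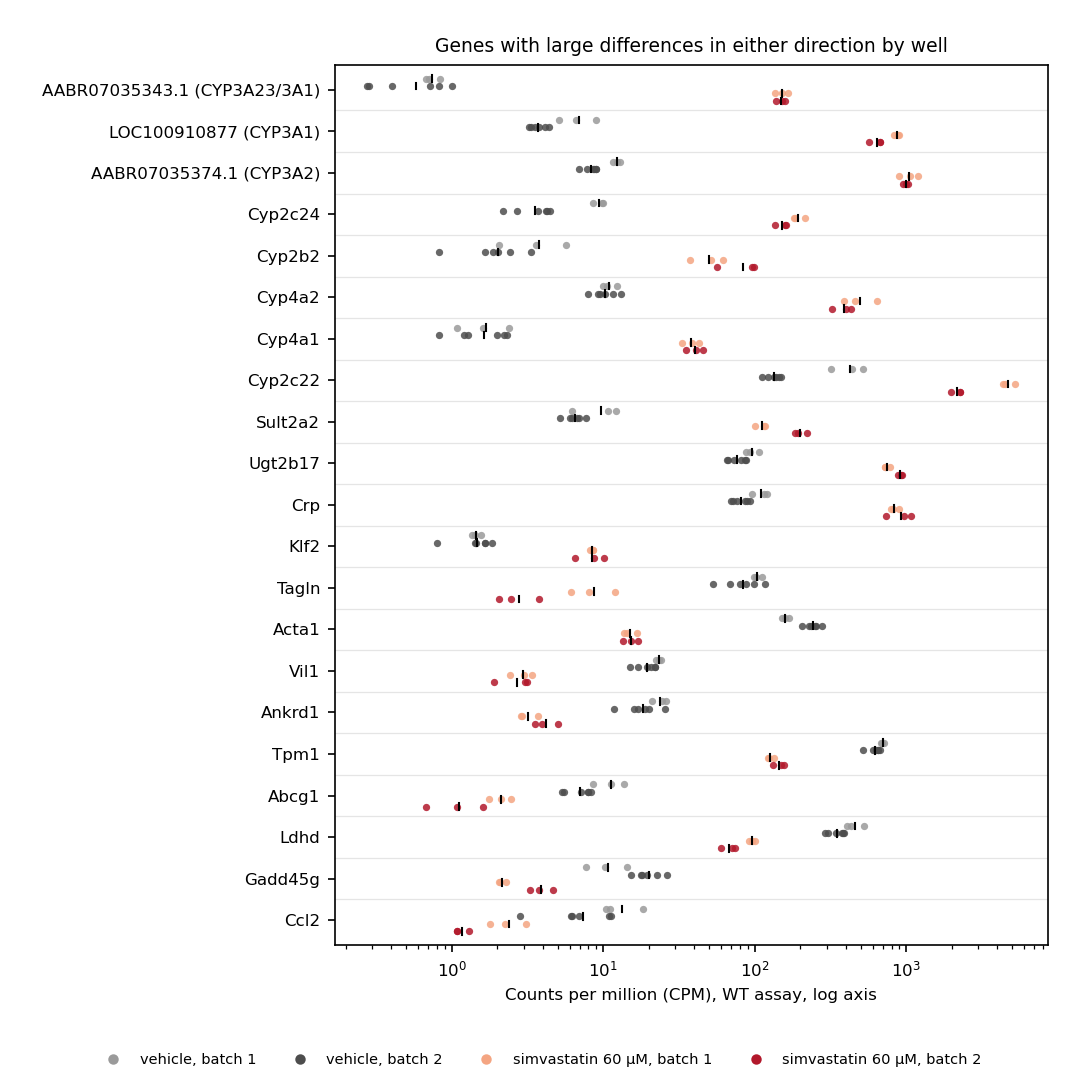
CPM (log axis) of 21 genes with large differences in either direction in each WT well. Points are wells, coloured by group and batch, and short vertical lines are group means. The CYP3A rows rise from under 14 CPM in vehicle to over 130 CPM with simvastatin, and Tagln, Acta1 and Tpm1 fall.

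Some of the largest rises belonged to no list. Cyp2c24, a P450, rose by 4.96 ± 0.21 (SE, adjusted p = 8.7e-50) and Sult2a2, a hydroxysteroid sulfotransferase, by 4.38 ± 0.26 (SE, adjusted p = 5.8e-34). Crp, C-reactive protein, was the largest rise of the acute phase list. In batch 1, Crp read 817, 893 and 789.6 CPM with simvastatin and 115, 121 and 95.8 CPM in vehicle wells. In batch 2, Crp read 1068, 734 and 971 CPM with simvastatin against 69.5 to 93.0 CPM (median 81.6) in the 6 vehicle wells. Its wells did not overlap, and the fold change was 9.44 (log2 3.24 ± 0.21 SE, adjusted p = 6.5e-31).

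In the acute phase list, 7 of 14 tested genes rose, Crp included, against 11.4% of all genes tested, 2 fell, against 12.5%, and 5 did not pass. Within batches, 1 member rose in batch 1 and 7 rose in batch 2, beside 7.59% and 8.84%. Among the fibrinogen chains, Fgb rose by 0.87 ± 0.17 (SE, adjusted p = 1.2e-05) and Fga by 0.68 ± 0.19 (SE, adjusted p = 0.0030), and both were above the vehicle wells in both batches, although neither passed in batch 1 alone (adjusted p = 0.067 and 0.13). Lcn2, lipocalin 2, rose by 0.72 ± 0.20 (SE, adjusted p = 0.0042), with overlap of the wells in both batches. The endotoxin-binding protein Lbp fell (-0.60, adjusted p = 5.1e-08), and Orm1 and A2m did not pass.

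Of 14 tested genes of hepatocyte identity, 9 rose, against 11.4% of all genes tested, 2 fell, against 12.5%, and 3 did not pass, with a median of 0.40. G6pc, glucose-6-phosphatase of gluconeogenesis, rose by 3.04 ± 0.40 (SE, adjusted p = 1.6e-10) from under 1 CPM in each vehicle well. Pck1, the gluconeogenic carboxykinase, rose by 1.71 ± 0.25 (SE, adjusted p = 4.7e-09) and the amino acid enzyme Tat by 1.37 ± 0.13 (SE, adjusted p = 4.2e-17). Ttr, transthyretin, rose by 0.64 ± 0.16 (SE, adjusted p = 0.00074) and the regulator Cebpa by 0.58 (adjusted p = 7.3e-05). Alb had 0.084 and Apoa1 -0.18, neither passing, and Foxa3 and Tf fell (-0.49 and -0.39, adjusted p = 0.0015 and 0.014). Within batches, 5 members rose in batch 1 and 8 rose in batch 2, beside 7.59% and 8.84% of all genes tested, and in the ST assay 3 of 10 rose, beside 16.3%.

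For bile acids, 4 of 9 tested genes rose, against 11.4% of all genes tested, and 5 did not pass. Abcb11, the canalicular bile salt export pump, was higher in all simvastatin wells. In batch 1, Abcb11 read 251, 204 and 180.3 CPM with simvastatin and 89.1, 76.1 and 73.0 CPM in vehicle wells. In batch 2, Abcb11 read 247, 280.5 and 255 CPM with simvastatin against 108 to 132 CPM (median 122) in the 6 vehicle wells. The log2 fold change was 1.22 ± 0.14 (SE, adjusted p = 2.3e-13). Akr1d1, a reductase of bile acid synthesis, rose by 1.85 ± 0.23 (SE, adjusted p = 8.5e-12), more in batch 2 than in batch 1 (2.43 against 1.03, adjusted p of the difference 0.0028). Amacr, a racemase of side-chain oxidation, had 0.49 ± 0.15 (SE, adjusted p = 0.011), with overlap of the wells. It did not pass in batch 1 alone (0.25, adjusted p = 0.49) or in the ST assay (0.33, adjusted p = 0.059). Abcb4, the phospholipid exporter, had 0.78 ± 0.31 (SE, adjusted p = 0.0497), a call lost on leaving out any one of 10 of the 15 wells (adjusted p up to 0.11). Against vehicle wells of the same plate Abcb4 did not pass (0.64, adjusted p = 0.16). Cyp7a1, the rate-limiting enzyme of bile acid synthesis, had 1 read over the 15 wells.

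Of 16 tested genes of the integrated stress response, 2 rose, 1 fell and 13 did not pass, beside 11.4% higher and 12.5% lower over all genes tested, with a median of -0.0074. Its regulator Atf4 rose by 0.25 ± 0.07 (SE, adjusted p = 0.0040). Trib3 had 0.44 ± 0.15 (SE, adjusted p = 0.024), a call lost without replicate 3 of simvastatin in batch 2 (adjusted p = 0.087), and Atf3 had -0.60 ± 0.22 (SE, adjusted p = 0.030), lost without any one of the 3 batch 1 simvastatin wells or replicate 2 of batch 2 (adjusted p up to 0.076). Trib3 did not pass against vehicle wells of the same plate (0.39, adjusted p = 0.083). Ddit3 and Asns had 0.41 and -0.14 and did not pass. None of the 9 tested endoplasmic reticulum chaperones passed, beside 23.9% of all genes tested. In batch 2 alone 1 of the 9 was higher, beside 8.84% of all genes tested, and in batch 1 alone none passed, beside 14.1%. The highest counted, Dnajc3 and Hsp90b1, had 0.24 (adjusted p = 0.10) and -0.018 (adjusted p = 0.95). At an unadjusted p under 0.05 Dnajc3, 1 of the 9, differed, and DESeq2 called 0 of them.

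Of 10 tested p53 targets, 1 rose, 4 fell and 5 did not pass, beside 11.4% higher and 12.5% lower over all genes tested. Within batches, 1 fell in batch 1 and 4 fell in batch 2, beside 6.49% and 7.72%. Phlda3, an inhibitor of AKT, fell by 0.58 on the log2 scale (SE 0.10, adjusted p = 3.3e-07), the apoptosis nuclease Aen had -0.42 ± 0.12 (SE, adjusted p = 0.0056) and the cell cycle inhibitor Cdkn1a had 0.18 (adjusted p = 0.54). The ST assay gave Aen 0.025 (adjusted p = 0.93). Sesn1 had 0.73 ± 0.26 (SE, adjusted p = 0.031) at under 4 CPM, a call lost without any one of 6 of the 15 wells (adjusted p up to 0.11).

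Ccng1, cyclin G1, had -1.04 ± 0.31 (SE, adjusted p = 0.0076), and its vehicle wells split by plate. In batch 2 the simvastatin wells, on plate 2, held 21.1, 29.6 and 29.6 CPM. The 3 vehicle wells of plate 2 held 80.6 to 102 CPM and the 3 of plate 3 held 22.4 to 30.4 CPM, so the simvastatin wells overlapped with plate 3 and not with plate 2. Against vehicle wells of the same plate the log2 fold change was -1.38 (adjusted p = 0.00050), and the ST assay gave -0.31 (adjusted p = 0.10).

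Of 13 tested NRF2 targets, 2 rose and 2 fell, shares near the 11.4% and 12.5% of all genes tested, and 9 did not pass. AABR07054319.1, which shares its probe number with the sulfiredoxin gene Srxn1, rose by 1.28 ± 0.17 (SE, adjusted p = 1.4e-10). Gpx2, a glutathione peroxidase, had -0.93 ± 0.21 (SE, adjusted p = 0.00025) and Gclc, the first enzyme of glutathione synthesis, -0.47 ± 0.14 (SE, adjusted p = 0.0050). Ephx1, epoxide hydrolase, had 0.36 ± 0.12 (SE, adjusted p = 0.022), a call lost without replicate 2 or 3 of simvastatin in batch 1 (adjusted p = 0.12 and 0.059). Nqo1 and Hmox1 had 0.025 and 0.44 and did not pass, although Hmox1 was higher in batch 1 (1.00, adjusted p = 3.9e-08) and had -0.25 in batch 2 (adjusted p of the difference 0.055).

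Immediate early and KLF transcription factors included the rise of Klf2, a factor known for its induction by statins in endothelial cells. In batch 1, Klf2 read 8.63, 8.60 and 8.23 CPM with simvastatin and 1.56, 1.43 and 1.36 CPM in vehicle wells. In batch 2, Klf2 read 10.1, 8.74 and 6.56 CPM with simvastatin against 0.805 to 1.83 CPM (median 1.55) in the 6 vehicle wells. The wells did not overlap, and the log2 fold change was 2.46 ± 0.26 (SE, adjusted p = 1.6e-15). None of the 8 endothelial markers in the WT table reached the count minimum, and their summed level was 3.55 to 4.11 CPM with simvastatin and 2.73 to 5.54 CPM with vehicle in batch 1 and 2.62 to 4.92 against 2.33 to 4.26 CPM in batch 2. Of the 16 tested factors, 2 rose (Klf2 and Klf9), against 11.4% of all genes tested, 5 fell, against 12.5%, and 9 did not pass. The serum-responsive factors Egr1 and Fosb fell, at -0.84 ± 0.21 (SE, adjusted p = 0.00080) and -2.02 ± 0.55 (SE, adjusted p = 0.0028). Fosb vehicle wells of batch 2 held 13.0 to 18.2 CPM on plate 2 and 4.26 to 8.58 CPM on plate 3, and the same-plate log2 fold change was -2.25 (adjusted p = 0.0016). Fos had -1.10 ± 0.40 (SE, adjusted p = 0.034), and 6 of the 15 wells each lost this call when left out (adjusted p up to 0.11).

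Cell cycle genes were lower, with more of them passing in batch 1. Of 12 tested, 9 fell, against 12.5% of all genes tested, and none of the 12 rose, with a median of -1.02. In batch 1 alone 10 fell, against 6.49% of all genes tested, with a median of -1.65, and in batch 2 alone 1 fell, against 7.72%, with a median of -0.51. Mcm5, a subunit of the replicative helicase, shows the difference in level. In batch 1, Mcm5 read 0.548, 1.30 and 1.94 CPM with simvastatin and 8.29, 8.22 and 7.33 CPM in vehicle wells. In batch 2, Mcm5 read 0.954, 0.683 and 2.04 CPM with simvastatin against 2.14 to 2.89 CPM (median 2.51) in the 6 vehicle wells. The vehicle wells of batch 1 were higher than those of batch 2, and the log2 fold change was -2.64 in batch 1 and -1.04 in batch 2 (adjusted p = 0.14). No member passed the test of a difference between batches. Mcm6 had -1.23 ± 0.28 (SE, adjusted p = 0.00027), the mitotic kinase Plk1 -1.51 ± 0.43 (SE, adjusted p = 0.0047) and topoisomerase Top2a -1.17 ± 0.37 (SE, adjusted p = 0.011) over both batches, all at under 10 CPM. The ST assay gave Plk1 -0.52 (adjusted p = 0.26).

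Of 7 tested Kupffer cell and leukocyte markers, 3 fell (C1qc, Cd74 and Lyz2), against 12.5% lower over all genes tested, and 4 did not pass. In batch 2 alone 4 fell, beside 7.72% of all genes tested, and in batch 1 alone C1qc, Cd74 and Lyz2 had -0.44, -0.60 and -0.64 and did not pass (adjusted p = 0.29, 0.21 and 0.12). The pan-leukocyte marker Ptprc, below the count minimum, had 28 reads over the 6 simvastatin wells and 23 over the 9 vehicle wells. The summed level over the 11 markers in the table was 102 to 109 CPM with simvastatin and 125 to 163 CPM with vehicle in batch 1, and 47.8 to 51.5 against 76.9 to 116 CPM in batch 2, without overlap. The chemokine Ccl2, which attracts monocytes, was one of the 10 largest falls named by rule, at -2.58 ± 0.43 (SE, adjusted p = 3.3e-07), and Ccl20 at -2.44 ± 0.43 (SE, adjusted p = 1.3e-06). The part of these cells in the fall of the chemokines was not tested. Of the cholangiocyte markers, Sox9 fell (-1.29, adjusted p = 0.0014), Epcam rose (0.35, adjusted p = 0.042), and Krt7 and Muc1 were at 0 in all 15 wells. The other large falls were Ldhd, mitochondrial D-lactate dehydrogenase, at -2.34 ± 0.16 (SE, adjusted p = 8.5e-28) and the stress-inducible Gadd45g at -2.33 ± 0.27 (SE, adjusted p = 3.3e-13).

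**Figure D3:**
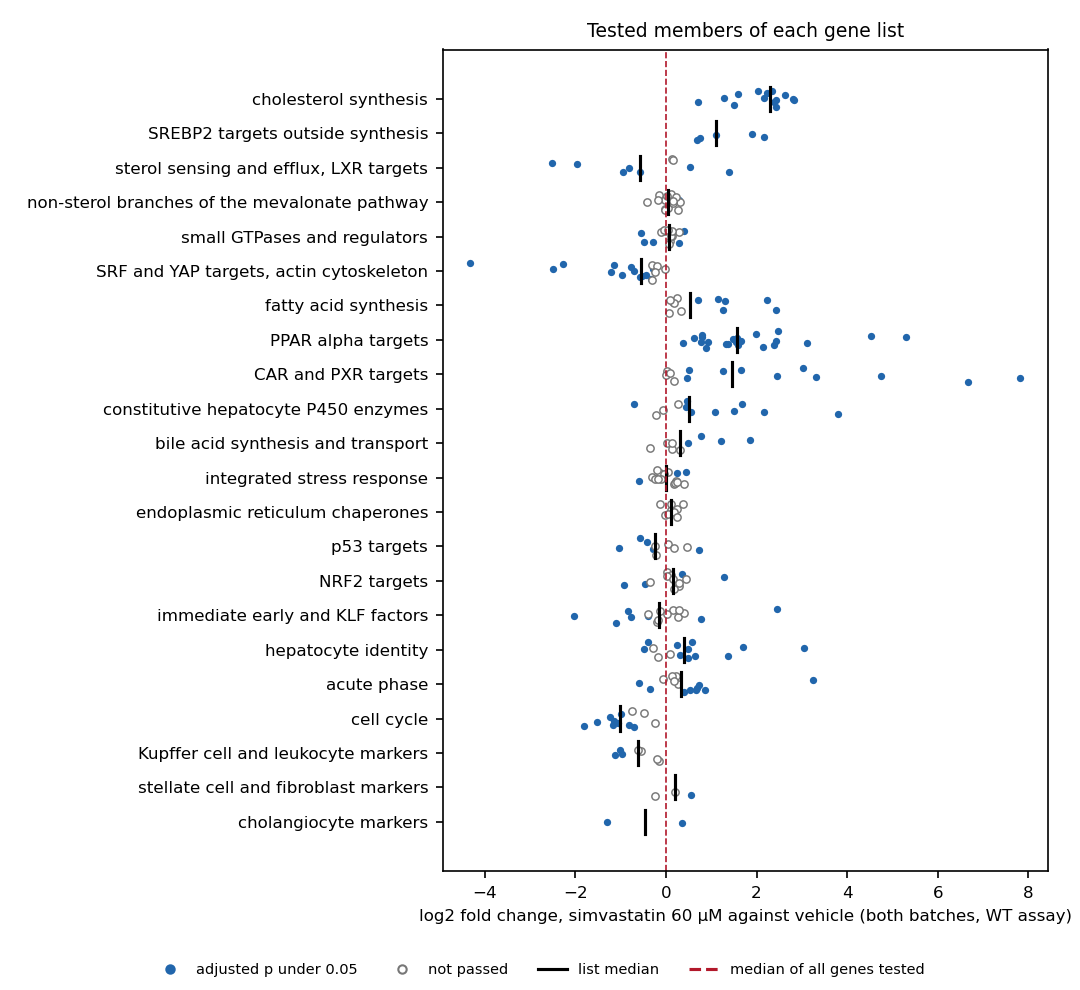
Log2 fold change of each tested member of the 22 gene lists with at least 1 tested member, simvastatin 60 µM against vehicle in the WT assay. Filled points passed at an adjusted p under 0.05, open points did not, black bars are list medians and the dashed line is the median of all genes tested. Cholesterol synthesis and PPAR alpha targets lie wholly to the right, actin and cell cycle genes to the left.

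The 2 batches, which differ in rat, culture, libraries and sequencing, were compared next. In batch 1 alone 1435 genes (14.1%) passed and in batch 2 alone 1688 (16.6%). Of these, 790 passed in both, 55.1% of the batch 1 calls and 46.8% of the batch 2 calls, and 789 of the 790 had the same sign. All 14 cholesterol synthesis genes rose in each batch, against 7.59% and 8.84% of all genes tested, with a median log2 fold change of 1.88 in batch 1 and 2.51 in batch 2. Of the 22 PPAR alpha targets, 21 passed in each batch. The actin list had 8 falls in batch 1 and 9 in batch 2, beside 6.49% and 7.72% of all genes tested. The test of a different effect between batches passed for 61 genes (0.599%), or 108 with vehicle wells of the same plate, and among the 90 tested genes named by rule for 5: Fasn, RGD1565355, Cyp2c11, Akr1d1 and Sult2a2, each with the larger rise in batch 2. Sult2a2 had 3.57 in batch 1 and 4.96 in batch 2 (adjusted p of the difference 0.029).

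**Figure D4:**
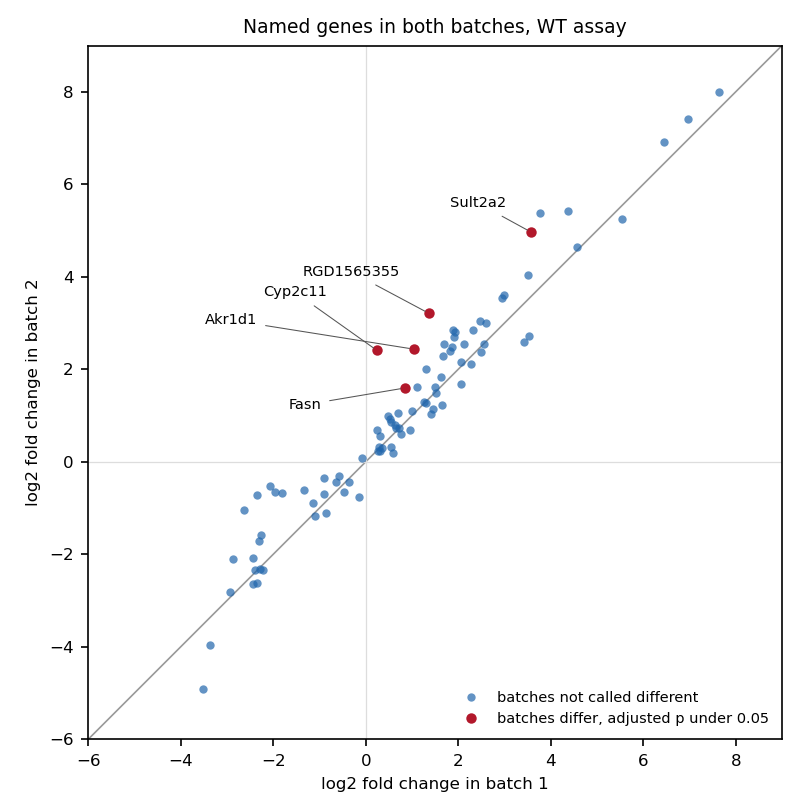
Log2 fold change in batch 2 (vertical axis) against batch 1 (horizontal axis) for the 90 tested genes named by rule, one point per gene, with the line of equality. The 5 red points are genes whose effect differed between batches, and they lie above the line.

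Simvastatin 60 µM was set against 3 other treatments that raised cholesterol genes: simvastatin 2.4 µM, ketoconazole 15 µM, an azole that inhibits CYP51, and WY14643 8 µM, a PPAR alpha agonist. All log2 fold changes against vehicle share the vehicle wells, so values are given side by side and differences were tested directly between treatments. Simvastatin 2.4 µM was on the plates of 60 µM (plate 4 in batch 1 and plate 2 in batch 2), while ketoconazole and WY14643 were on plate 5 in batch 1 and plate 3 in batch 2, so in the tests against these 2 chemicals the treatment and the plate cannot be told apart. Between vehicle wells of plates 2 and 3 the medians differed 3.74-fold for Ccng1 and 2.41-fold for Fosb. Directly, 2443 genes (24.0%) differed from simvastatin 2.4 µM, 4691 (46.0%) from ketoconazole and 5259 (51.6%) from WY14643. Against vehicle, simvastatin 2.4 µM itself differed in 245 genes (2.40%), ketoconazole in 5226 (51.3%) and WY14643 in 5728 (56.2%).

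Cholesterol synthesis had median log2 fold changes of 2.29 with simvastatin 60 µM, 1.73 with 2.4 µM, 2.62 with ketoconazole and 2.21 with WY14643. Simvastatin 2.4 µM was taken as the treatment most like 60 µM, ketoconazole as an inhibitor of CYP51 and WY14643 as the PPAR alpha agonist. Earlier results of these data were known, so the rises with these 3 treatments are a description. In the direct comparison of concentrations, 6 of 14 members were higher at 60 µM, against 12.0% of all genes tested, and none lower. Lss is an example, at 2.18 with simvastatin 60 µM, 1.40 with simvastatin 2.4 µM, 2.67 with ketoconazole 15 µM and 2.21 with WY14643 8 µM, with 60 µM above 2.4 µM by 0.77 ± 0.16 (SE, adjusted p = 4.5e-05). Msmo1 had -0.027 ± 0.18 between the concentrations and did not pass (adjusted p = 0.94). Against ketoconazole, 2 members were higher and 6 lower with simvastatin 60 µM, beside 22.9% and 23.2% of all genes tested, with Fdps and Cyp51 among the lower (-0.90 and -0.64) and Mvk and Nsdhl the higher (0.26 and 0.44). Against WY14643, 5 members were higher and 2 lower with simvastatin 60 µM, beside 24.5% and 27.1% of all genes tested.

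Abcg1 fell with both concentrations, at -2.50 with simvastatin 60 µM, -2.85 with simvastatin 2.4 µM, -1.95 with ketoconazole 15 µM and -0.60 with WY14643 8 µM, and the concentrations did not differ past the threshold (difference 0.35, adjusted p = 0.52). Insig1 had 1.90 and 1.19 with 60 and 2.4 µM (difference 0.71 ± 0.15 SE, adjusted p = 0.00013). Insig2 had 1.39 with simvastatin 60 µM, 0.016 with simvastatin 2.4 µM, -0.77 with ketoconazole 15 µM and -0.33 with WY14643 8 µM, and 60 µM was above each of the other 3 in direct tests (adjusted p = 2.1e-14, 3.4e-27 and 3.2e-20).

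Of the 18 tested actin genes, 14 were lower at 60 µM than at 2.4 µM in the direct test, beside 12.0% of all genes tested. Against vehicle, 8 fell with ketoconazole, beside 26.3% of all genes tested, and 14 with WY14643 (28.2%). Against ketoconazole 1 was higher and 6 lower with simvastatin 60 µM (22.9% and 23.2% of all genes tested), and against WY14643 3 were higher and 3 lower (24.5% and 27.1%). Tagln had -4.32 with simvastatin 60 µM, -0.25 with simvastatin 2.4 µM, -2.02 with ketoconazole 15 µM and -0.85 with WY14643 8 µM. It was lower with simvastatin 60 µM than with each of them (adjusted p = 2.7e-22, 1.2e-09 and 1.9e-18). Tpm1 had -2.28 with simvastatin 60 µM, 0.041 with simvastatin 2.4 µM, -1.55 with ketoconazole 15 µM and -1.90 with WY14643 8 µM. The list medians were -0.54, 0.081, -0.26 and -1.01 in the same order.

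PPAR alpha targets had medians of 1.56 with simvastatin 60 µM, 0.12 with 2.4 µM, -0.27 with ketoconazole and 4.61 with WY14643. Against vehicle, 1 of 22 rose with 2.4 µM, beside 1.13% of all genes tested, 3 rose and 7 fell with ketoconazole (25.0% and 26.3%), and 22 rose with WY14643 (28.0%). All 22 tested members were lower with simvastatin 60 µM than with WY14643, beside 27.1% of all genes tested, and 21 were higher than with simvastatin 2.4 µM, beside 12.0%. Acot1 met the count minimum only through other wells of the assay. Pdk4 averaged 1.44 CPM with simvastatin 60 µM and 0.16 CPM with vehicle, and had 8.67 with WY14643. The minimum keeps such low members where another treatment is high, so their direction in comparisons with WY14643 is no support. For the CAR and PXR list, 9 of 14 were above 2.4 µM (12.0% of all genes tested), 10 above ketoconazole (22.9%), and 7 above and 5 below WY14643 (24.5% and 27.1% of all genes tested). LOC100910877 (CYP3A1 by probe number) had 7.19 with simvastatin 60 µM, 0.19 with simvastatin 2.4 µM, 2.26 with ketoconazole 15 µM and 1.16 with WY14643 8 µM, and Cyp2b2 had 4.75 with simvastatin 60 µM, -0.081 with simvastatin 2.4 µM, -1.48 with ketoconazole 15 µM and 5.70 with WY14643 8 µM. Simvastatin 60 µM was thus above WY14643 for the CYP3A row (difference 6.03, adjusted p = 3.4e-51) and had -0.95 for Cyp2b2 (adjusted p = 0.00071). For hepatocyte identity, 7 of 14 members were higher with simvastatin 60 µM than with 2.4 µM (12.0% of all genes tested), 13 higher than with ketoconazole (22.9%), which itself lowered 11 against vehicle (26.3%), and 4 were above and 8 below WY14643 (24.5% and 27.1%).

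**Figure D5:**
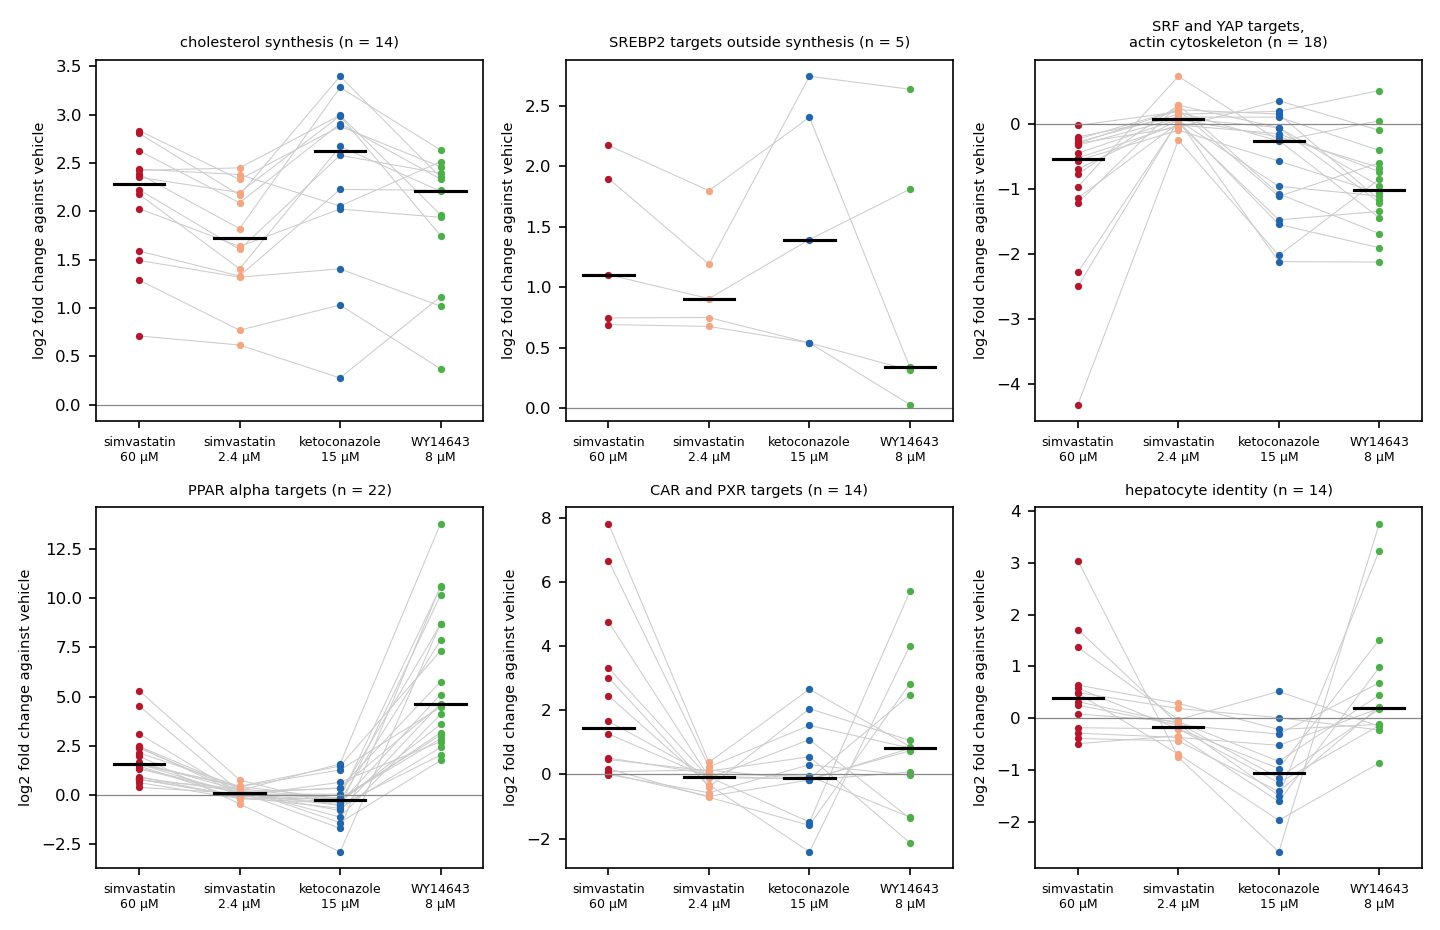
Log2 fold change against vehicle (vertical axes, each panel with its own range) of the tested members of 6 gene lists under simvastatin 60 µM, simvastatin 2.4 µM, ketoconazole 15 µM and WY14643 8 µM. Each point is a gene, grey lines join a gene and black bars are medians. All cholesterol synthesis points lie above 0 under the 4 treatments, and the actin median lies at 0.081 under simvastatin 2.4 µM.

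The ST assay read the same lysates with 2654 probes, so it checks the measurement and adds no biological replicate. Of 1760 ST genes tested, 614 (34.9%) passed, 287 higher (16.3%) and 327 lower (18.6%). Of 1603 genes tested in both assays, 384 passed in both and 383 of these had the same sign. All 13 cholesterol synthesis genes in the ST assay rose, Hmgcs1 by 2.42 and Idi1 by 2.56, as did 16 of 17 PPAR alpha targets, and all 6 actin genes fell, Tagln by 4.09 on the log2 scale. The shares were smaller for other lists: 3 of 10 hepatocyte identity genes rose, and 3 of 9 constitutive P450 genes rose and 1 fell. Of the list of sterol sensing and efflux, the 3 tested genes Nr1h3, Soat1 and Srebf1 had adjusted p of 0.62, 0.80 and 0.22. Among 4 small GTPases Rhoc and Rheb fell, and Rhoa and Rac1 did not pass. Of the other lists, 6 of 9 CAR and PXR targets, 6 of 8 fatty acid synthesis genes and 7 of 11 acute phase genes rose, and 9 of 12 cell cycle genes fell. CYP3A1 rose by 7.48 and CYP3A2 by 5.79. Acaa1a had 2.53 in the ST and 0.94 in the WT assay, and Soat1 -0.17 and -1.95. Of the 61 genes named by rule and tested in the ST assay, 9 that passed in the WT assay did not pass: Soat1, Rhoa, Amacr, Atf3, Ccng1, Ephx1, Fos, Plk1 and Aen. Rheb passed there in the opposite direction.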

How the data were processed

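Primary rat hepatocytes were profiled by TempO-Seq with the WT and ST assays. The values are raw read counts per probe, as the authors deposited them, per the labels and methods from reads aligned with STAR 2.5.3a on rn6 with up to 2 mismatches allowed, and replicates were not pooled. Probes of the same gene were summed (20946 WT genes). A gene was tested, where its mean over all wells of the assay reached 10 counts, with edgeR 4.0.16 (R 4.3.3), TMM scaling and the quasi-likelihood test, in one fit of all wells with treatment and batch as terms, and Benjamini-Hochberg adjustment over all genes tested. CPM were scaled by TMM. The batch term pairs samples because the labels give the batch and the methods give each batch its own rat, library construction and sequencing. Deviations of wells of one batch from their group means had r = 0.698 across genes between simvastatin and vehicle wells.

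Of 343 list entries, 301 matched a WT symbol, an ST probe number or a RefSeq synonym, and 261 were tested. Some list members are not reported here and are left out of all list counts and medians. Members and lists were chosen with earlier results of these data known. Named genes were all measured members of the first 2 lists, the 10 largest changes in each direction that passed in both batches at a mean of at least 5 CPM, and up to 4 genes per other list (in a list with no call, the 2 with the highest counts), with other members named for contrast. On simulated data for this comparison, 98% of 2-fold and 100% of 4-fold changes among 10191 genes were found, with 7 false calls. The simulated counts had the same spread for all genes and no difference between batches, so these rates do not give the power in the real data. DESeq2 1.42.0, other scalings, filters, designs and left-out wells were tried. Totals of reads limit the precision of low genes, which have the larger SE. No well was a duplicate of another.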

Additional observations from a re-analysis of the deposited data

Results flagged for a closer look

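In the 6 vehicle wells of batch 2, a single well stood apart for 2 of the 90 named genes tested, with a gap to its neighbour of 0.653 of the whole range for Fdft1 (lowest well 36.0 CPM, next 45.4 CPM) and 0.657 for Aacs (highest well 1.38 CPM, next 1.00 CPM), past Dixon's limit for 6 values. Chance puts about 1 in 20 groups past this limit.

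The effect of simvastatin 60 µM differed between the 2 batches for 5 named genes (edgeR quasi-likelihood test, adjusted p under 0.05). The log2 fold change in batch 2 minus that in batch 1 was 2.18 for Cyp2c11, 1.86 for RGD1565355, 1.41 for Akr1d1, 1.41 for Sult2a2 and 0.77 for Fasn. In each the vehicle wells of batch 2 lay below those of batch 1 at the median.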

How the results depend on the processing

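Of the 90 named genes, 78 were tested at a mean of at least 50 counts and 61 in the ST assay. Each kept its direction in every alternative of scaling, filter, design, batch and left-out well in which it was tested, with 3 exceptions. These were Hsp90b1, which had no call and a log2 fold change near 0, and in the ST assay Rheb (-0.33) and Aen (0.025). With one well left out, 9 of the 88 called genes lost the call in some setting (Nus1, Rhoc, Rheb, Abcb4, Atf3, Trib3, Sesn1, Ephx1 and Fos). The count of genes changed was 2436, and ranged from 2081 to 2422 with a well left out (9.73% to 11.5% of genes tested higher, 10.6% to 12.4% lower). It was 3289 with only simvastatin 60 µM and vehicle wells in the fit and 2743 with one group per batch and treatment, and in both Dnajc3, not called otherwise, passed (adjusted p = 0.0035 and 0.027). In batch 1 alone it was 1435, with 6.49% of genes tested lower, and in batch 2 alone 7.72% were lower. The ST assay, with fewer genes, called 614 (16.3% higher, 18.6% lower). At an absolute log2 fold change of at least 1 the count was 462 (1.83% higher, 2.71% lower), and the direct differences were 494 from simvastatin 2.4 µM, 1104 from ketoconazole and 1366 from WY14643. With no replicate block, that is without the batch term, 1733 genes were called, direct differences numbered 1772, 3993 and 4573, and 10 named genes lost the call (Nus1, Rhoc, Rheb, Abcb4, Trib3, Gpx2, Fos, Egr1, Lcn2 and Fga). Calls were also lost with no filter on low counts for 7 named genes (Nus1, Rhoc, Rheb, Abcb4, Atf3, Sesn1 and Fos), with upper quartile scaling for 3 (Nus1, Rheb and Abcb4), with RLE scaling for 2 (Nus1 and Abcb4), at a mean of at least 50 counts for 1 (Nus1), and with vehicle wells of the same plate for 3 (Rheb, Abcb4 and Trib3). In each batch alone 16 lost the call, Nus1, Rhoc, Abcb4, Soat1 and Sesn1 in both. The count with a different effect between batches was 61, 108 with vehicle wells of the same plate and 37 at an absolute log2 fold change of at least 1. Upper quartile scaling made 38.7% of calls higher against 47.7% with TMM. The cause was not tested where a setting has the same genes and wells. Depth limits genes such as Soat1 and Pdk4, with few reads per well, and with 2 batches, rat, libraries and sequencing cannot be told apart.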

Other observations

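The ST assay measured 4 of the 42 list entries that had no matched WT symbol. Ugt1a1, which conjugates bilirubin and is a CAR and PXR target, rose by 0.75 ± 0.18 (SE, adjusted p = 0.00030) in edgeR's test, with 1.32 in batch 1 and 0.30 in batch 2. Cyp2d3, a constitutive P450, rose by 0.86 ± 0.13 (SE, adjusted p = 2.3e-09). The 2 rat P-glycoprotein genes had opposite signs, Abcb1a at 0.70 ± 0.27 (SE, adjusted p = 0.036) and Abcb1b at -0.47 ± 0.14 (SE, adjusted p = 0.0057), and their difference was not tested.

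Several members below the count minimum had counts that were far apart. Slco1a4, a sinusoidal uptake transporter and PXR target, had 466 reads over the 6 simvastatin wells and 46 over the 9 vehicle wells, and Dcn, the matrix proteoglycan decorin and a marker of stellate cells and fibroblasts, 159 and 39. Myl9, a myosin light chain and SRF target, had 9 and 83, and Cyp7b1, an oxysterol hydroxylase, 0 and 14. In the fit without a count minimum their log2 fold changes were 3.80, 2.38 and -2.56 for the first 3 (adjusted p = 3.4e-21, 1.8e-08 and 8.2e-07, edgeR). These genes were chosen after their values were seen.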
